A study of Mus musculus with 6 samples.

Results

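The genes described here encode the proteasome, chosen as every listed symbol made of Psm, 1 letter from a to g and a number. The rule found 48 of 25124 listed symbols. Of these, 46 were among the 11257 genes with at least 1 TPM (the usual unit of transcript level, scaled by transcript length and by library) in at least 3 of 6 libraries, and only those were tested. Psma8, a testis-specific alpha subunit, was listed at 0 in all 6 libraries, and Psmb11, the thymus-specific beta subunit, was listed at 0.0150 TPM, which is 1 recovered read, in 1 control library and at 0 in the others. Psmc3ip and Psme2b start with Psm but fall outside the rule.

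The study compared untreated RAW264.7 cells, a mouse macrophage-like tumour line, labelled as knockout of E4BP4 (3 libraries) with RAW264.7 cells labelled control (3 libraries). E4BP4 is the bZIP repressor encoded by Nfil3. Both groups grew in high-glucose medium with serum and were at low passage. The sources used here do not say how the knockout was made, whether it is 1 clone, what the control cells carried or whether replicates were separate cultures, so p-values cover the spread among the libraries at hand, possibly only technical. Library totals in the deposited column headers were 18.4 to 23.3 M tags (M, mega), and 15620627 to 19879411 reads per library were recovered for the listed symbols alone. The controls held 29.5, 29.9 and 31.02 TPM of Nfil3 and the libraries labelled knockout 105, 104 and 99.8 TPM, so the transcript of the targeted gene ran against the label. A transcript level cannot show whether the protein was lost, and the groups are therefore called by their labels. Every direction given below follows the labels and would reverse if they were exchanged, which was not tested. All 10 macrophage markers examined passed the filter, with 3 higher and 5 lower under the knockout label, and Adgre1 was low in both groups (means of 1.53 and 2.73 TPM under the knockout and control labels). Of 41 markers of 7 other cell types, only S100a8 and Lck passed the filter. The summed level of the neutrophil list was 5.17 to 6.19 TPM under the knockout label and 4.50 to 5.98 TPM in the controls, that of the T and NK cell list 4.15 to 4.35 against 2.58 to 2.71 TPM, and each of the other 5 lists was at most 1.36 TPM in every library. Hba-a1, Cd3g and Krt8 were listed at 0 in all 6 libraries.

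The proteasome is the protease that degrades ubiquitin-tagged proteins in the cytosol and nucleus. Its 20S core is a barrel of alpha rings around beta rings, and 3 beta subunits (Psmb5, Psmb6 and Psmb7) carry the active sites. Interferons induce the replacement subunits Psmb8, Psmb9 and Psmb10, which form the immunoproteasome, and the PA28 cap made of Psme1 and Psme2. These forms change the peptides that are cut for display on class I molecules of the major histocompatibility complex, and macrophages hold both forms. The 19S regulatory particle, with ATPases (Psmc) and other subunits (Psmd), recognises and unfolds tagged proteins.

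Start-site windows are shown for the inducible catalytic subunits Psmb8, Psmb9 and Psmb10, which fell, and for the constitutive Psmb5 and Psmb6, so that the letters upstream of both kinds can be read beside their levels. Each is the 250 bases before the RefSeq start in GRCm38.p6, the assembly of mm10, 5′ to 3′ on the gene's strand. Capitals mark a motif match.
Psmb8, chr17:34197945-34198194, plus strand: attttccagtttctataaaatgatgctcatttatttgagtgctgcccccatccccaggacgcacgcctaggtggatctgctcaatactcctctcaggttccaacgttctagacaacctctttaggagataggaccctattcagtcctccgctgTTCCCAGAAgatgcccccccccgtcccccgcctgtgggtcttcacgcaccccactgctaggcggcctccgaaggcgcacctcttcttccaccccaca
Psmb9, chr17:34187331-34187580, minus strand: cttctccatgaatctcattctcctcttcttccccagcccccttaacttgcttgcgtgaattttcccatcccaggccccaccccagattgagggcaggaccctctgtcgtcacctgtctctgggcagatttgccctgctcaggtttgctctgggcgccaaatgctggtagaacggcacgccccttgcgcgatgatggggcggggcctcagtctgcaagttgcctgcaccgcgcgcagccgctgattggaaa
Psmb10, chr8:105938393-105938642, minus strand: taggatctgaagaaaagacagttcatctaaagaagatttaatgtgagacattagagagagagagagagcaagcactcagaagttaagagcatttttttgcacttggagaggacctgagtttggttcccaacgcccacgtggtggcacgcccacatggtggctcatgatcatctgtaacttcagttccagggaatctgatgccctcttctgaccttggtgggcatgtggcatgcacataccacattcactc
Psmb5, chr14:54617996-54618245, minus strand: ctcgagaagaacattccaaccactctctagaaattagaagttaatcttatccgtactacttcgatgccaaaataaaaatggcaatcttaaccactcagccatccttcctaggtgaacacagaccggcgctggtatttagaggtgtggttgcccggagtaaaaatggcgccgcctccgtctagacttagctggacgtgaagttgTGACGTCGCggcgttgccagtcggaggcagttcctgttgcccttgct
Psmb6, chr11:70525107-70525356, plus strand: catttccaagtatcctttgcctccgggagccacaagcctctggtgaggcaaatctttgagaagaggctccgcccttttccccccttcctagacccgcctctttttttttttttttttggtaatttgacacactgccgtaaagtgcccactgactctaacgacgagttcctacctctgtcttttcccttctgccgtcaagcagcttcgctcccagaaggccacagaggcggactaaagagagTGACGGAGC

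The motifs below were searched on both strands of windows from 250 bases before to 50 after the start, which RefSeq gave for 40 of the 48 members. Psma8, Psmb1, Psmb2, Psmb7, Psmc3, Psmd3, Psmd7 and Psmg2 had no such window and were neither searched nor shown. No matches overlapped. The D-box TTANGTAA, the element E4BP4 binds, was in 0 of 40 members and in 2.72% of all 27025 symbols with a window. The interferon-stimulated response element (GAAA, 2 free bases, GAAA) was in 5 of 40 members (Psmb3, Psmd4, Psmd9, Psme1 and Psmg4) and in 3.99% of all symbols. The gamma-activated site TTCNNNGAA was in 3 of 40 (Psmb8, Psmd2 and Psmg1) and in 9.55% of all symbols, and in Psmb8 it began at base −97. The antioxidant response element TGACNNNGC, bound by NRF1 and NRF2, was in 6 of 40 (Psmb5, Psmb6, Psmc6, Psmd9, Psmd12 and Psme4) and in 14.0% of all symbols. Among the interferon-inducible members only Psmb8 and Psme1 held a match, and that of Psme1 began at base 10, on the minus strand of the window (chr14:55578493-55578522, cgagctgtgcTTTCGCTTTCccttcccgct). A match is only a run of letters in this window, and none of these counts was tested.

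All 5 interferon-inducible members, Psmb8, Psmb9, Psmb10, Psme1 and Psme2, were lower under the knockout label, by 1.26-fold to 1.57-fold in mean TPM. The other 41 tested members moved both ways: 13 rose, 9 fell and 19 did not pass. Calls are from limma on log2(TPM + 1), with p-values adjusted over all tested genes and a threshold of 0.05, and fold changes on the log2 scale are knockout label minus control. On this rule 50.1% of all tested genes were called, 26.7% higher and 23.4% lower, so that 13 of 46 members higher and 14 of 46 lower lie near the background. The same shares stand beside each count by role or list below, and none of those counts was tested. The median log2 fold change was −0.50 over the 5 inducible members, 0.01 over the other 41 and 0.02 over all 11257 genes. Changes in RNA per cell and in the share of cells that express a gene cannot be told apart in these bulk libraries.

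**Figure D1:**
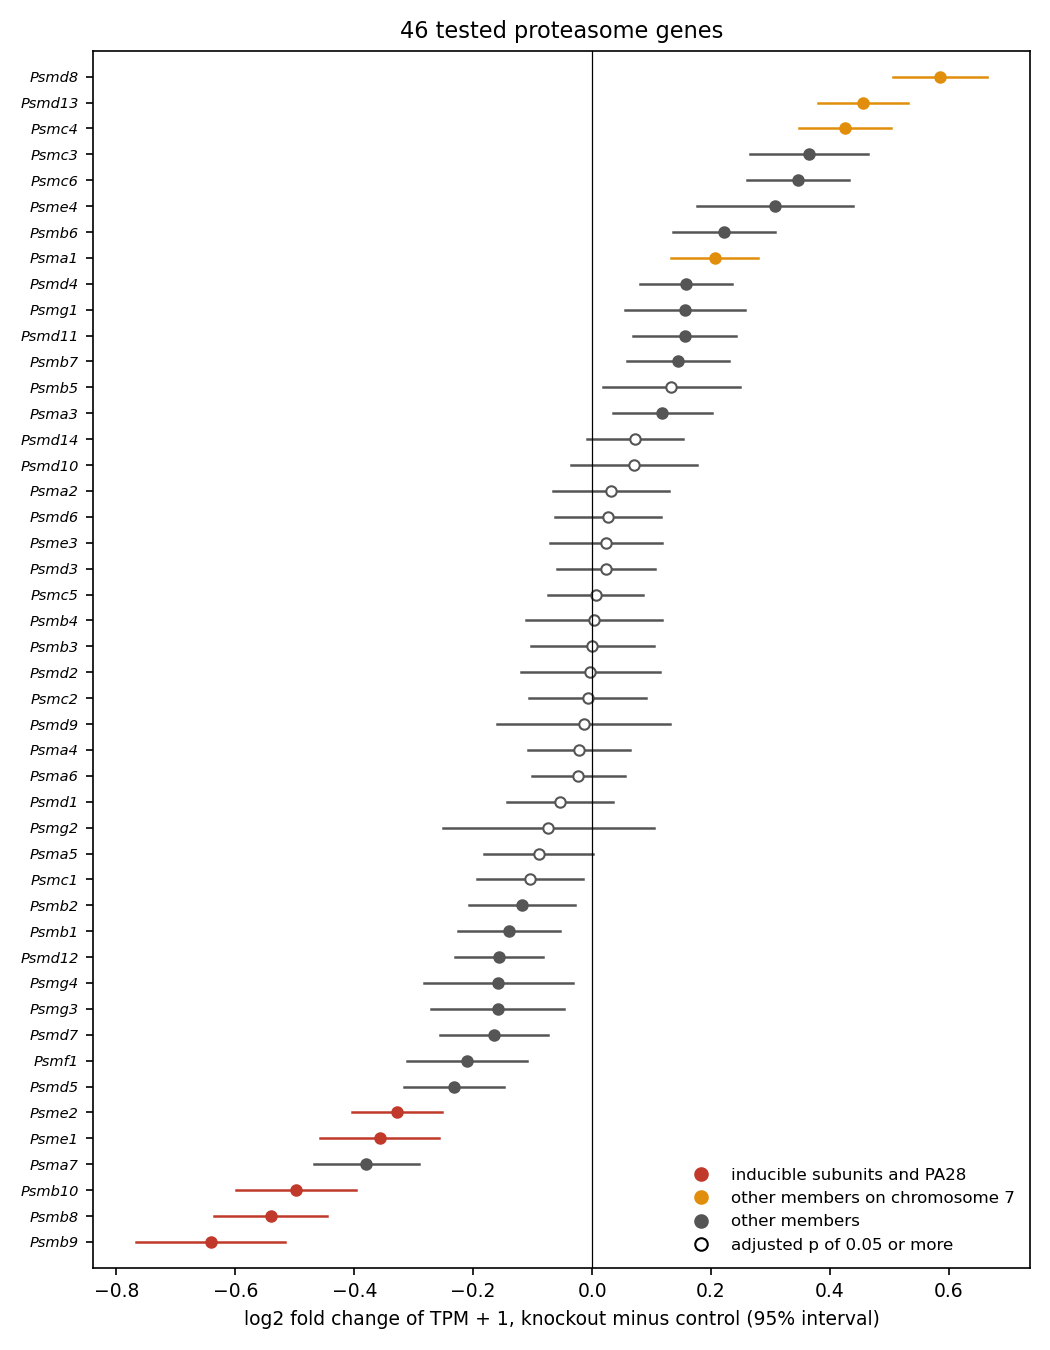
Log2 fold change of TPM + 1 (x axis, knockout label minus control) with its 95% interval for the 46 tested members (y axis, ordered by value), where open points did not pass an adjusted p of 0.05. The 5 inducible members are among the 6 lowest, and 3 of the 4 members on chromosome 7 are the 3 highest.

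Psmb8 encodes the inducible subunit with chymotrypsin-like activity. It measured 156, 161 and 169.6 TPM in the controls and 108, 111 and 115 TPM under the knockout label. The groups did not overlap, as for 58.5% of all tested genes (27.2% with the knockout label lower), and the same held for all 5 inducible members. The means were 162 ± 6.98 and 111 ± 3.43 TPM (SD, n = 3 each), a log2 fold change of −0.54 (SE 0.0424, limma adjusted p = 7.53e-06). Psmb8 lies on chromosome 17 from 34198195 to 34201454 in mm10, inside the class II region of the major histocompatibility complex. The authors' deposited table gave Psmb8 a log2 fold change of −0.55.

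Psmb9 starts next to the peptide transporter gene Tap1, which lies between Psmb9 and Psmb8. Psmb9 showed the lowest log2 fold change of all members. Its control libraries held 73.5, 65.9 and 67.3 TPM, and those labelled knockout held 44.8, 45.7 and 40.9 TPM. All 3 control values were above every value under the knockout label, and the log2 fold change was −0.64 (SE 0.0560, limma adjusted p = 1.43e-05). Psmb9 and Tap1 share 5.79% of the exon bases of Psmb9 on opposite strands in GENCODE M21, and the sources used here give no strand setting, so reads in that stretch cannot be assigned. An antisense transcript, Gm20496, likewise covers 14.7% of the exon bases of Psmb8.

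Psmb10, the inducible trypsin-like subunit, maps to chromosome 8, away from the histocompatibility complex. It was at 54.3, 51.0 and 52.0 TPM in the controls and at 35.1, 37.7 and 37.8 TPM under the knockout label, with a log2 fold change of −0.50 (SE 0.0451, limma adjusted p = 1.80e-05). The 3 inducible catalytic genes lie on 2 chromosomes and fell by 1.42-fold to 1.57-fold.

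Psme1 and Psme2 encode the alpha and beta subunits of the PA28 cap and lie close together on chromosome 14. Psme1 had 157, 152 and 141 TPM in the controls and 118, 118 and 114 TPM under the knockout label (log2 fold change −0.36, SE 0.0446, limma adjusted p = 0.000141). Psme2 had 136, 134 and 133 TPM against 108, 104 and 108 TPM (log2 fold change −0.33, SE 0.0339, limma adjusted p = 4.20e-05). In both genes the lowest control library lay above the highest library labelled knockout. Of the 31-base stretches in Psme2 transcripts, 33.5% also occur in Psme2b, a copy on chromosome 11, so reads could have been split between them. Psme2b was listed lower too, with means of 4.39 ± 0.339 against 6.08 ± 0.788 TPM (SD, n = 3 each). Of its own 31-base stretches 76.5% occur in Psme2, so its values are not independent of those of Psme2.

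Of the constitutive catalytic subunits that these replace, Psmb6 and Psmb7 rose and Psmb5 did not pass. Psmb5, the counterpart of Psmb8, had 74.1, 80.2 and 82.4 TPM in the controls against 89.6, 88.3 and 81.9 TPM. The groups overlapped and the difference did not pass (log2 fold change 0.13, 95% interval 0.02 to 0.25 before adjustment, limma adjusted p = 0.0530). That call turned on single libraries: the adjusted p was 0.0258 without replicate 3 of the knockout label and 0.0392 without control replicate 3. Gm3375 shares 59.8% of the 31-base stretches of Psmb5. On the same strand, Mir686 covers 12.1% of the exon bases of Psmb5. Mir686 was listed at means of 188 TPM in the controls and 186 TPM under the knockout label. The level of Psmb5 is therefore uncertain.

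Psmb6, the counterpart of Psmb9, rose from 421, 410.0 and 421 TPM to 489, 506 and 467 TPM, with no overlap (log2 fold change 0.22, SE 0.0384, limma adjusted p = 0.00106). Psmb7, the counterpart of Psmb10, rose from 290.5, 291 and 279.6 TPM to 320.3, 327 and 305 TPM (log2 fold change 0.14, SE 0.0381, limma adjusted p = 0.0109). Without replicate 1 of the knockout label Psmb7 did not pass (adjusted p = 0.0501). The other strand holds exons of Nek6 over 11.8% of the exon bases of Psmb7.

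**Figure D2:**
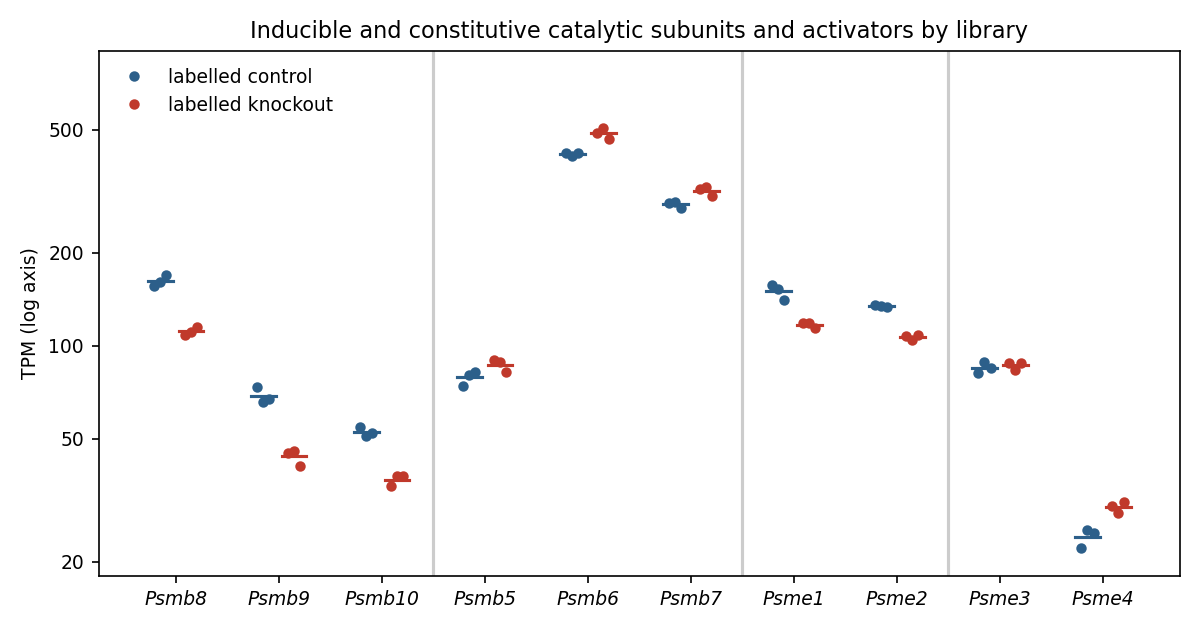
TPM (log axis) of inducible catalytic subunits, their constitutive counterparts, PA28 subunits and other activators, where points are libraries and bars group means. Psmb8, Psmb9, Psmb10, Psme1 and Psme2 sit lower under the knockout label in every library, while Psmb6 and Psmb7 sit higher.

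Ratios within a library do not depend on how libraries were scaled. The Psmb8 to Psmb5 ratio of TPM was 2.10, 2.01 and 2.06 in the controls and 1.204, 1.26 and 1.40 under the knockout label. The Psmb9 to Psmb6 ratio was 0.174, 0.161 and 0.160 against 0.0916, 0.0904 and 0.0874. The Psmb10 to Psmb7 ratio was 0.187, 0.175 and 0.186 against 0.110, 0.115 and 0.124. Every library labelled knockout lay below every control in all 3 ratios, by 1.60-fold, 1.84-fold and 1.57-fold in the means. A two-sided exact permutation test gave p = 0.1 for each of the 3 ratios (Benjamini-Hochberg adjusted p = 0.1 over the 3, exact), which is the smallest p that 3 against 3 libraries allow. As a share of the summed TPM of the 6 catalytic genes, the inducible ones made up 26.5%, 26.3% and 26.9% in the controls and 17.3%, 17.4% and 18.5% under the knockout label. That share is of transcripts and does not give the share of assembled particles. The Psmb8 to Psmb5 ratio and the share both rest on the uncertain level of Psmb5.

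**Figure D3:**
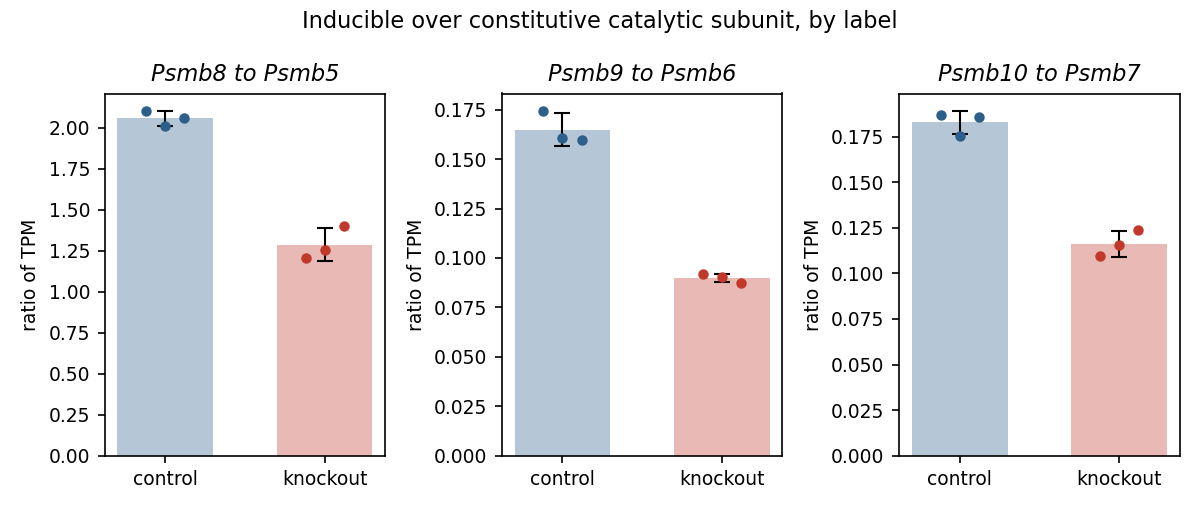
TPM ratio of each inducible catalytic subunit to its constitutive counterpart (y axis) by label, with points for libraries, bars for means and error bars for 1 SD (n = 3). Mean ratios were 2.06 and 1.29 for Psmb8 to Psmb5, 0.165 and 0.0898 for Psmb9 to Psmb6, and 0.183 and 0.116 for Psmb10 to Psmb7, control first.

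Of the other activators and regulators of the core, Psme4 rose, Psmf1 fell and Psme3 did not pass. Psme3, which forms the nuclear PA28 gamma cap and is not an interferon-induced gene, had 81.7, 88.3 and 84.5 TPM in the controls against 87.7, 83.3 and 87.7 TPM, overlapping and not called (log2 fold change 0.02, 95% interval −0.07 to 0.12, limma adjusted p = 0.656). Psme4, which encodes the PA200 cap, rose from 22.1, 25.3 and 24.8 TPM to 30.3, 28.6 and 31.2 TPM without overlap (log2 fold change 0.31, SE 0.0584, limma adjusted p = 0.00184). Psmf1, the PI31 regulator first described as an inhibitor of the 20S core, fell from 18.9, 19.6 and 18.7 TPM to 16.2, 16.7 and 16.2 TPM (log2 fold change −0.21, SE 0.0450, limma adjusted p = 0.00364).

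In the alpha rings, which gate entry to the core, 2 of 7 tested genes rose and 1 fell. Control means ran from 62.6 TPM for Psma3 to 531 TPM for Psma7, although each subunit has an equal place in the particle. TPM here uses 1 listed length per gene (2361 bases for Psma3, 943 for Psma7). Gm13835 shares 16.2% of the 31-base stretches of Psma3, so levels of different genes compare only roughly. Psma7 had the lowest log2 fold change outside the inducible 5. It held 532, 517 and 543 TPM in the controls and 412, 420.2 and 391 TPM under the knockout label, with no overlap (log2 fold change −0.38, SE 0.0393, limma adjusted p = 4.27e-05). Psma1 rose by 0.21 on the log2 scale and Psma3 by 0.12. The Psma3 call was lost without replicate 1 (adjusted p = 0.0744) or 2 (adjusted p = 0.0919) of the knockout label. It was also lost with no trend, limma-voom, a replicate block or chromosome medians removed, alternatives listed at the end. Psma2, Psma4, Psma5 and Psma6 did not pass, with log2 fold changes from −0.09 to 0.03. Gm8394 shares 46.2% of the 31-base stretches of Psma5.

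Of the 4 noncatalytic beta genes 2 fell and 0 rose. Psmb1 and Psmb2 had log2 fold changes of −0.14 and −0.12. Psmb1 did not pass without replicate 1 of the knockout label (adjusted p = 0.0668). The Psmb2 call was lost without any 1 of 5 libraries, the exception being control replicate 2, with adjusted p from 0.0647 to 0.102. Fits with no filter, no trend or a replicate block lost that call too. Psmb3 and Psmb4 both had a log2 fold change of 0.00, with 95% intervals of −0.10 to 0.10 and −0.11 to 0.12. Their means were 151 ± 1.46 against 151 ± 9.50 TPM and 451 ± 16.5 against 449.9 ± 29.7 TPM (knockout label first, SD, n = 3 each).

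The regulatory particle held the largest rises. Among its 6 ATPase genes 3 rose, 0 fell and 3 did not pass. Psmc4 had 109.5, 114 and 115 TPM in the controls and 153, 151 and 151 TPM under the knockout label (log2 fold change 0.42, SE 0.0346, limma adjusted p = 9.55e-06). Psmc3 had 132, 139 and 145 TPM against 184, 182 and 172 TPM (log2 fold change 0.36, SE 0.0442, limma adjusted p = 0.000117). Psmc6 rose by 0.35 on that scale, from a mean of 136 to 174 TPM. These genes encode 3 of the subunits of a single hexameric ring, whereas Psmc1, Psmc2 and Psmc5 had log2 fold changes of −0.10, −0.01 and 0.01. Psmc1 lay close to the threshold (adjusted p = 0.0509), with groups that did not overlap. Exons of Slc39a13 on the other strand cover 8.25% of the exon bases of Psmc3.

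Of 11 other regulatory subunits 4 rose, 2 fell and 5 did not pass. Psmd8 rose most of all members, from 432, 410.4 and 409 TPM to 619, 629 and 630.2 TPM (log2 fold change 0.59, SE 0.0353, limma adjusted p = 1.44e-06). Psmd13 rose from 122, 124 and 120.3 TPM to 167, 171 and 165 TPM (log2 fold change 0.46, SE 0.0337, limma adjusted p = 5.24e-06). Neither gene's groups overlapped. Exons of Sirt3 on the other strand cover 10.1% of the exon bases of Psmd13. Psmd4, a ubiquitin receptor, and Psmd11, a scaffold subunit, each rose by 0.16. Psmd7, the partner of the deubiquitinase Psmd14, fell from 121, 119 and 123 TPM to 108, 113 and 103 TPM (log2 fold change −0.17, SE 0.0403, limma adjusted p = 0.00735), and Psmd12 fell by 0.16. Psmd14 itself did not pass (0.07 on the log2 scale), nor did Psmd1, Psmd2, Psmd3 and Psmd6.

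Of the 7 assembly factors 1 rose and 3 fell. Psmd5, a chaperone of the regulatory base, fell from 57.4, 55.6 and 54.5 TPM to 47.2, 47.2 and 47.7 TPM (log2 fold change −0.23, SE 0.0373, limma adjusted p = 0.000665). The base chaperones Psmd9 and Psmd10 did not pass, with log2 fold changes of −0.01 and 0.07. Among the 4 chaperones of the 20S core, Psmg1 rose (0.16), Psmg3 and Psmg4 fell (both −0.16) and Psmg2 did not pass (−0.07). Each of these 3 calls was lost without 1 or another library. Psmg1 had an adjusted p of 0.0660 without replicate 2 of the knockout label and 0.0531 without control replicate 2. For Psmg3 the values were 0.0935 without replicate 2 of the knockout label and 0.0715 without control replicate 3. With a library left out, Psmg4 passed only without replicate 2 of either label, and otherwise had an adjusted p of 0.0511 to 0.134. Among the processing alternatives listed at the end, Psmg4 also lost its call with no filter, no trend, limma-voom and the deposited log2 values. Psmg3 lost its call on the deposited log2 values, and both Psmg1 and Psmg3 with chromosome medians removed. In the authors' own comparison none of these 3 genes had an adjusted p under 0.05.

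The members that rose most shared a chromosome. All 4 members on chromosome 7, Psma1, Psmc4, Psmd8 and Psmd13, rose, and 3 of them were the 3 highest of all. Tested genes of chromosome 7 as a whole were shifted, with a median log2 fold change of 0.24 over 878 genes, whereas the medians of the other autosomes and of chromosome X lay between −0.05 and 0.06. On chromosome 7, 59.2% of tested genes were called higher and 8.31% lower, against 23.9% and 24.7% elsewhere. Among tested genes within 5 Mb, members left out, the median was 0.22 around both Psmc4 and Psmd8 (152 genes each), 0.16 around Psmd13 (79 genes) and 0.29 around Psma1 (41 genes). Psmd8, Psmd13 and Psmc4 exceeded the chromosome's median by 0.34, 0.21 and 0.18, and Psma1 fell short of it by little (−0.04). With each chromosome's median removed, an alternative chosen after seeing the data, Psma1 no longer passed (limma adjusted p = 0.401), while Psmd8, Psmd13 and Psmc4 still did (4.40e-05, 0.000662 and 0.00198). That alternative left 10 higher and 10 lower among the other 41 members, and all 5 inducible members lower, with 47.8% of all tested genes called, 23.0% higher and 24.8% lower. The cause of the chromosome-wide shift was not tested.

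Off chromosome 7, 9 of 37 members outside the inducible 5 rose and 9 fell. Psmc3 on chromosome 2 lay in a stretch where the 38 neighbours had a median of 0.36, equal to its own value at this rounding. Around Psma7, also on chromosome 2, the median of 43 neighbours was −0.17, against −0.38 for the gene. Psmf1 on chromosome 2, Psmb1 on chromosome 17 and Psmg3 on chromosome 5 also fell among neighbours with a negative median. Their log2 fold changes were −0.21, −0.14 and −0.16, against medians of −0.15 (85 genes), −0.19 (29 genes) and −0.14 (129 genes). Around Psmb2, Psmd5, Psmd7, Psmd12 and Psmg4, which fell too, the neighbours' median lay between −0.04 and 0.01. Around the 5 inducible members the neighbours' median was near 0: 0.03 around Psmb8 and Psmb9 (170 genes), −0.04 around Psmb10 (76 genes) and −0.03 around Psme1 and Psme2 (102 genes). Psmc6 and Psme4 rose in neighbourhoods with a median of 0.08 each.

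**Figure D4:**
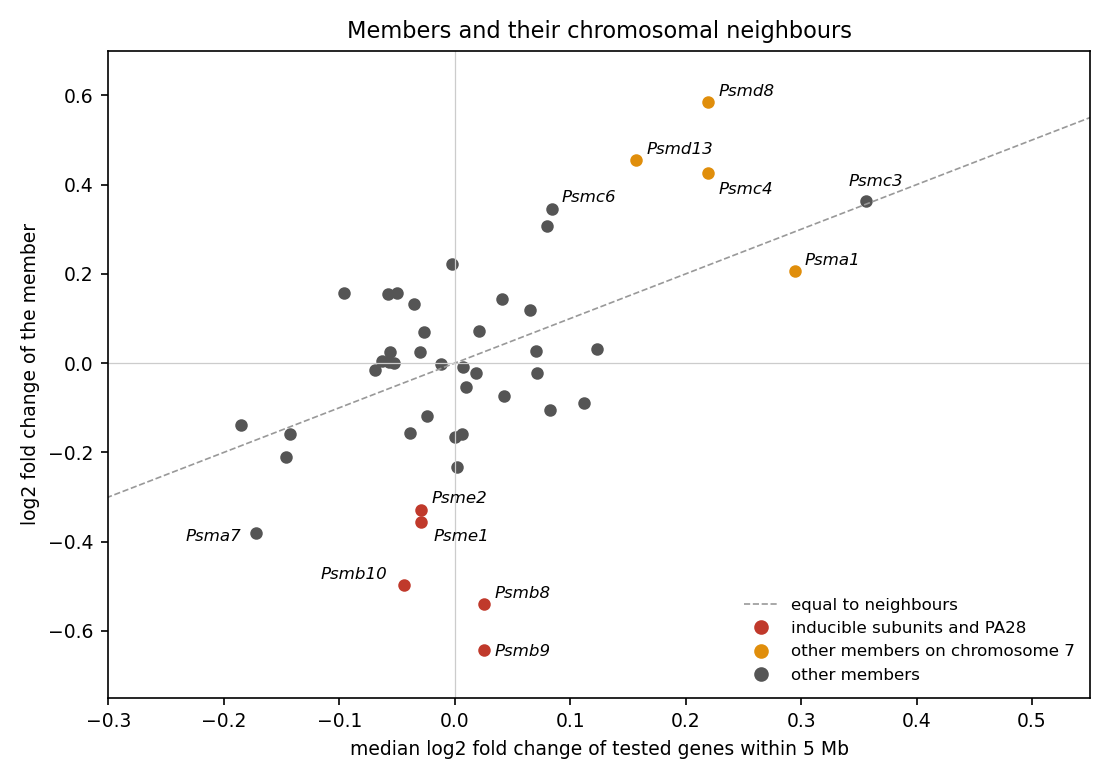
Log2 fold change of each tested member (y axis) against the median log2 fold change of other tested genes within 5 Mb (x axis), knockout label minus control. Psma1, Psmb1, Psmc3 and Psmg3 are among those near the dashed line of equality. Psmd8, Psmd13 and Psmc4 lie above it, and the 5 inducible members well below it, from −0.33 to −0.64 where the neighbours are near 0.

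Lists of genes around the proteasome are given by their counts, and differences between lists were not tested. The list of class I peptide pathway genes and their regulators had 13 of 16 members lower, 0 higher and 3 that did not pass, with a median log2 fold change of −0.42, against 23.4% of all genes lower. Calr, Pdia3, B2m and Tapbp, which fold or form the class I complex, had log2 fold changes of −0.61, −0.46, −0.54 and −0.52. Tap1, the transporter subunit gene that starts beside Psmb9, fell from 16.2, 16.2 and 17.3 TPM to 11.0, 11.6 and 10.8 TPM (log2 fold change −0.54, limma adjusted p = 2.88e-05). Tap2, the gene next to Psmb8 on its other side, had 36.4, 39.3 and 40.3 TPM in the controls against 38.7, 35.9 and 36.7 TPM, with overlapping groups (log2 fold change −0.06, limma adjusted p = 0.370, not passed). Irf1, a transcription factor known to drive Psmb8, Psmb9 and Psmb10, fell from 21.2, 19.9 and 20.5 TPM to 14.9, 14.5 and 14.7 TPM. Tap1, Tap2 and Irf1 were named after their values were seen.

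Among 7 regulators of proteasome gene expression 3 rose, 1 fell and 3 did not pass. Of all tested genes 26.7% rose and 23.4% fell. Nfe2l1, which encodes NRF1, the factor known to raise proteasome subunit genes when proteasome activity is short, rose from 84.9, 95.1 and 90.8 TPM to 149.96, 148 and 147 TPM (log2 fold change 0.71, SE 0.0444, limma adjusted p = 1.78e-06). Ngly1, the enzyme that removes sugar chains from NRF1, and Nfe2l2, which encodes NRF2, rose by 0.28 and 0.19, and Vcp, which extracts proteins from the endoplasmic reticulum, fell (log2 fold change −0.18). Ddi2, the protease that activates NRF1, did not pass (0.07 on the log2 scale).

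Of 18 listed proteasome partners with other names, 6 rose and 5 fell. This count, and that of the ubiquitin supply genes, stand beside 26.7% of all tested genes higher and 23.4% lower. Pomp, the maturation factor of the 20S core, fell from 176, 177 and 183 TPM to 145, 139 and 139 TPM (log2 fold change −0.34, limma adjusted p = 4.89e-05), and Sem1, the smallest regulatory subunit, fell by 0.33. Ube3a, a ubiquitin ligase on chromosome 7, and Zfand5, a proteasome-binding protein, rose by 0.46 and 0.27. Of 6 ubiquitin supply genes 3 rose and 0 fell, with Ubb, a polyubiquitin gene, higher by 0.26 on the log2 scale, Uba6 by 0.20 and Rps27a by 0.12.

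**Figure D5:**
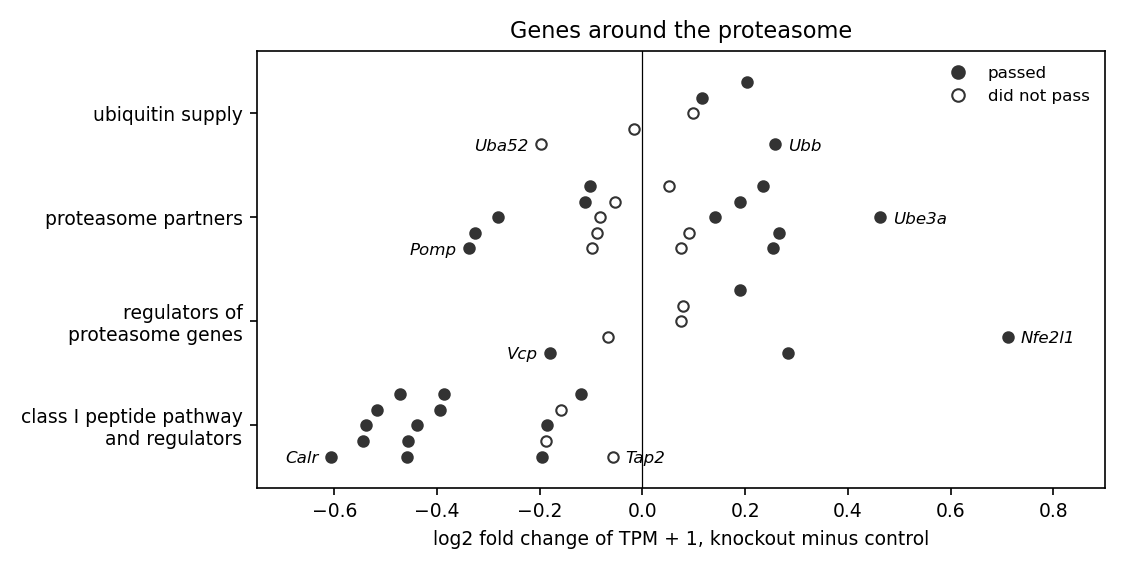
Log2 fold change of TPM + 1 (x axis, knockout label minus control) for tested genes of 4 lists around the proteasome (rows), where filled points passed an adjusted p of 0.05. Class I pathway genes all lie below 0, from −0.61 for Calr to −0.06 for Tap2, while the other lists lie on both sides and reach 0.71 for Nfe2l1.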

How the data were processed

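RNA-seq was made from polyadenylated RNA with an NEBNext Ultra kit, per the labels' protocols. Tools listed per the submitters' processing notes, without roles, are STAR 2.7.5a, HOMER 4.11.1, bcl2fastq and DESeq2, with build mm10. The authors deposited TPM values for 25124 symbols, and a second table with log2 values per library (transform not given in the sources used here), a log2 fold change and p-values of their own comparison, headed WT vs. TG, with TG read as the knockout label. Columns named WT and KO were matched to the labels by name and number.

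Genes with at least 1 TPM in at least 3 of 6 libraries were compared on log2(TPM + 1) in limma 3.58.1 (R 4.3.3) with a mean-variance trend, two-sided, without covariates. A pseudocount of 1 understates changes of low genes. TPM times length fell on whole multiples of 1 step per library (100% of values under 100 reads within 0.1 of a whole number), which gave 15620627 to 19879411 recovered reads per library over the listed symbols and, for tested members, 259 to 15931 reads per value. No replicate pair agreed within sampling noise.

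Members and lists were chosen with earlier results of these data known. Genes named in full were Nfil3, the 5 inducible members, Psmb5, Psmb6, Psmb7, Psme3, Psme4, Psmf1, and the 4 highest and 4 lowest called fold changes of the rest, with up to 4 genes per other list by adjusted p. Any gene named beyond this was chosen after its values were seen.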

Additional observations from a re-analysis of the deposited data

How the results depend on the processing

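Alternatives for the calls were a pseudocount of 0.1, no filter, a minimum of 5 TPM, upper-quartile scaling, no trend, limma-voom on recovered reads, the deposited log2 values, a replicate block, each library left out and, chosen after seeing the data, chromosome medians removed. The 5 inducible members were lower in all of them, and 35 of 46 members kept their call throughout. The inducible median of −0.50 was −0.53 with limma-voom, −0.42 on the deposited log2 values and between −0.52 and −0.46 with a library left out; the cause was not tested. Psma1 turned to −0.035 with chromosome medians removed. The replicate block left 25 of 27 calls among members, losing Psma3 and Psmb2, and gave exact p = 0.25 for each ratio, the smallest 3 pairs allow; the numbers do not pair the libraries (correlations of −0.06 to 0.00 for same-numbered ones). With a library left out, 22 to 26 members passed.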
